A study of Homo sapiens with 3 samples.

Results

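The genes described here encode the drug-metabolising enzyme families other than the classical aryl hydrocarbon receptor targets. They were chosen by gene symbol alone. They comprise cytochromes P450 (CYP), UDP-glycosyltransferases (UGT), glutathione S-transferases (GST, with the microsomal MGST), sulfotransferases (SULT), aldehyde dehydrogenases (ALDH) and flavin-containing monooxygenases (FMO). CYP1A1, CYP1A2, CYP1B1, ALDH3A1 and CYP51A1 were left out by that rule. In all, 103 of the 18132 genes named by the array's annotation belonged to the set, through 241 of 44994 probe sets naming 1 gene. The treated group was FaDu, an established human line of hypopharyngeal squamous carcinoma, kept for 48 h in medium with 10 µg/ml NSC-631570, an extract of greater celandine (Chelidonium majus). It gave 1 array. The untreated group, FaDu cells given distilled water in place of the extract, gave 2 arrays, here called untreated 1 and untreated 2, and the labels do not say whether these came from separate cultures. RNA was measured on human PrimeView arrays, and values are log2 signals per probe set.

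These enzymes act in sequence. Cytochromes P450 and flavin-containing monooxygenases add or expose an oxygen, aldehyde dehydrogenases turn aldehydes into acids, and the transferases attach glucuronic acid, glutathione or sulfate, which makes a compound easier to excrete. Liver and gut hold the highest levels of many of them, while squamous epithelium is known for glutathione transferases, aldehyde dehydrogenases and P450 enzymes that make or clear lipid hormones such as retinoic acid and vitamin D. Several members of these families therefore act on the cell's own metabolites more than on drugs.

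Markers of the labelled cell type were present on all arrays. All 7 measured squamous epithelial markers of 10 listed had signals above the yardstick for low signal described next, and the log2 of their summed signals was 15.18 in the treated array against 15.04 and 15.12 in untreated 1 and untreated 2. Of 8 hepatocyte markers 4 lay above it, SERPINA1, TTR, TF and APOA1, and ALB had 5.11 in the treated array against 4.78 and 5.02 in the untreated ones. The 5′ control signal of ACTB was lower in the treated array, at 12.23 against 13.61 and 13.60, and that of GAPDH had 14.00 against 14.45 and 14.51. The 3′ control of ACTB had 14.40 against 14.19 and 14.21. The part of this 5′ shift in the results below was not tested.

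No detection call was given per probe set, so signals were set against 359 probe sets for olfactory receptors, a gene family with little known transcription outside the olfactory epithelium. The 95th percentile of their mean signals was 6.05. Of the 103 enzyme genes, 42 had a brightest probe set above this level and 61 did not. Of all 18132 named genes 11428 did, a larger share than of the enzyme genes. Signals of different probe sets also depend on their probes, so this places genes near or away from low signal and does not rank RNA amounts.

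The families differed in how many members stood above the olfactory receptor level. It was 11 of 18 glutathione transferases, 13 of 18 aldehyde dehydrogenases and 17 of 44 P450 genes, beside 11428 of all 18132 named genes. It was only 1 of 10 UDP-glycosyltransferases, 0 of 9 sulfotransferases and 0 of 4 flavin-containing monooxygenases. The 1 UDP-glycosyltransferase was UGT8, and 0 of the 7 UGT2 genes stood above that level. GSTP1, the pi-class transferase, had the highest signal of the set, with 14.14 in the treated array against 14.26 and 14.18 in the untreated ones. MGST1, a membrane-bound transferase, had 13.45 against 13.22 and 12.83. GSTO1, of the omega class, had 12.37 against 12.05 and 11.87. The treated value lay below both untreated ones for GSTP1 and above both for MGST1 and GSTO1. MGST3 and MGST2, which also act in leukotriene synthesis, had treated signals of 10.97 and 10.64. Among aldehyde dehydrogenases, ALDH1A3, which makes retinoic acid from retinal, had the highest signal, and it was followed by ALDH18A1, which starts proline synthesis, ALDH9A1, of carnitine synthesis, and ALDH3A2, which oxidises fatty aldehydes.

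**Figure D1:**
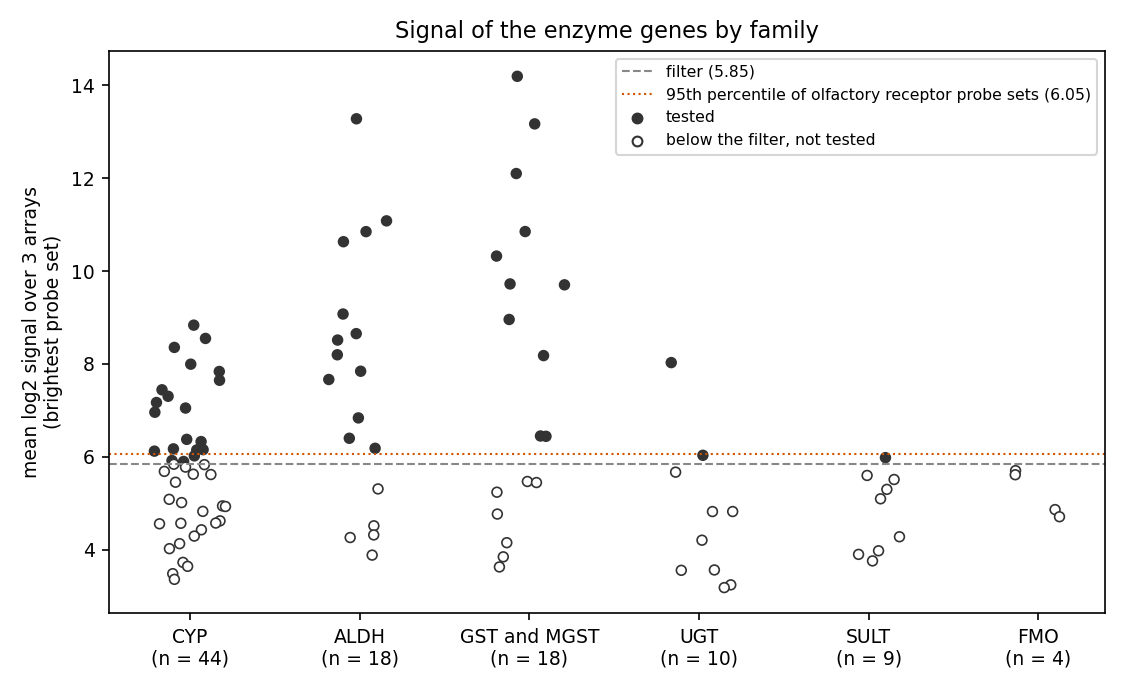
Mean log2 signal over the 3 arrays (vertical axis) of the brightest probe set of each of 103 enzyme genes, by family (horizontal axis). Filled points are the 47 genes above the filter at 5.85 and open points the 56 below it. Glutathione transferases and aldehyde dehydrogenases reach beyond 13, while all sulfotransferases and flavin-containing monooxygenases lie below the dotted line at 6.05, the 95th percentile of olfactory receptor probe sets.

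The P450 genes of families 1 to 3 in the set, apart from the vitamin D enzyme CYP2R1, mostly had low signal. Genes of family 1 were left out by rule, and the group was not restricted to enzymes of liver. Of the 14 genes in this group, 4 lay above the olfactory receptor level, where 11428 of all 18132 named genes did. CYP3A4, the main drug-oxidising P450 of liver, had 4.44 in the treated array against 4.25 and 4.19 in the untreated ones. CYP2E1, which oxidises ethanol, had 4.70 against 4.67 and 4.31, and CYP2C8 had 4.82 against 5.09 and 4.89. CYP2B6 had 4.81 against 4.58 and 4.48. None of these 4 genes passed the filter, so they were not tested, and differences this low say little about RNA. The 4 genes of the group with higher signals were CYP2F1, CYP2S1, CYP2J2 and CYP3A7. All 5 P450 genes of steroid hormone synthesis lay below the filter.

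Of the UDP-glucuronosyltransferases with a probe set of their own, UGT2B7, which conjugates steroids and many drugs, had 5.01 in the treated array against 4.81 and 4.65, and UGT2B15 had 4.83 against 4.89 and 4.75. The signal of UGT3A1 was 5.93 against 6.26 and 5.91, and that of UGT3A2 was 5.83 against 5.70 and 5.48. Signals of the sulfotransferases in the set were as low. SULT2B1, the cholesterol sulfotransferase of skin, had 5.68 against 5.60 and 5.26, and SULT1B1, the only one that was tested, had 5.92 against 5.80 and 6.24. Those of SULT4A1, SULT6B1 and SULT1C3 in the treated array were 5.69, 5.30 and 5.18. The flavin-containing monooxygenases FMO4, FMO1, FMO2 and FMO5 had treated signals of 5.76, 5.62, 4.92 and 4.73, and their differences from the untreated mean did not exceed 0.08.

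Whether NSC-631570 altered these genes was asked by comparing the treated array with the 2 untreated ones. A filter at the 40th percentile of all probe set means (5.85) removed genes of low signal, which left 47 members and 11932 genes in all. Every tested member also had an untreated mean above the filter. None of the 47 passed limma's test across all genes with Benjamini-Hochberg adjustment at 0.05, higher or lower, where 0.0419% of all tested genes passed as higher and 0.0251% as lower. The lowest adjusted p was 0.0884, for CYP2R1. At an unadjusted limma p under 0.05 there were 9 members higher and 0 lower, where 12.2% of all tested genes were higher and 2.25% lower. In RNA from whole cultures, less RNA per cell and fewer cells holding it cannot be told apart.

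Without a test, 8 of 47 tested members lay at least 1.5-fold above both untreated arrays, where 5.84% of all tested genes did, and 0 lay as far below both, where 1.23% did. The 8 were CYP2R1, CYP26B1, CYP4F11, GSTZ1, ALDH3B1, ALDH6A1, ALDH1A3 and GSTO2. At 2-fold there were 3 members above both, where 0.88% of all tested genes were, and 0 below, where 0.235% were. After centring each array on its median over the tested genes, 5 of 47 lay 1.5-fold above both (ALDH3B1, CYP26B1, CYP2R1, CYP4F11 and GSTZ1), where 2.63% of all tested genes did. After averaging the probe sets of each gene 4 of 40 did (ALDH6A1, CYP26B1, CYP2R1 and CYP4F11), where 3.53% of all tested genes did. The distance of the last gene inside the 1.5-fold limit was 0.60 for GSTO2, and that of the first outside it was 0.49 for UGT8.

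Among P450 genes, CYP2R1, which makes the circulating form of vitamin D by hydroxylation, had a signal of 7.20 in the treated array against 5.95 and 5.84 in the untreated ones. Both untreated values lay below the olfactory receptor level, so its fold is a ratio to a level not shown to be above background. The log2 difference was 1.30 ± 0.22 (SE from limma, 1 treated and 2 untreated arrays), 2.47-fold, with limma adjusted p = 0.0884. Its only probe set is of a type whose probes can match transcripts of more than 1 gene. CYP26B1, which breaks down retinoic acid, had 9.64 against 8.44 and 8.43. The difference was 1.20 ± 0.21, 2.30-fold (limma adjusted p = 0.0887), while its other probe set, at lower signal, differed by 0.12. CYP4F11, a hydroxylase of long-chain fatty acids and vitamin K, had 8.37 against 7.27 and 7.30, a difference of 1.09 ± 0.21, 2.12-fold (limma adjusted p = 0.111). Its other probe sets differed by 0.71 and 0.75, so all 3 probe sets of CYP4F11 had the treated array well above both untreated ones.

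Among transferases, GSTZ1, an isomerase of tyrosine breakdown, had 9.60 in the treated array against 8.71 and 8.56 in the untreated ones. It differed by 0.96 ± 0.22, 1.94-fold (limma adjusted p = 0.131), and its other probe sets by 0.17 and 0.60. GSTO2, which reduces oxidised vitamin C, had 10.22 against 9.33 and 9.62, a difference of 0.74 ± 0.23 (1.67-fold, limma adjusted p = 0.211). Its 3 other probe sets above the filter ranged between 0.06 and 0.71. In each of these genes, 1 dimmer probe set above the filter had the treated value between the untreated ones.

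Among aldehyde dehydrogenases, ALDH3B1, which oxidises aldehydes made by lipid peroxidation, had 9.07 in the treated array against 8.22 and 8.26 in the untreated ones. The difference was 0.83 ± 0.21, 1.77-fold (limma adjusted p = 0.157), but its other probe sets differed by 0.0022 and 0.15. ALDH6A1, a mitochondrial enzyme of valine breakdown, had 8.70 against 7.93 and 7.96, a difference of 0.75 ± 0.21 and 1.68-fold (limma adjusted p = 0.181), and had no other probe set. ALDH1A3 had 13.87 against 12.80 and 13.17, a difference of 0.88 ± 0.24 and 1.85-fold (limma adjusted p = 0.174). Its probe sets went opposite ways. Of the 4 others, the lowest differed by −0.92 and the highest by 0.28, and the mean over all 5 probe sets was −0.05. No direction for ALDH1A3 can be given from these probe sets together.

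**Figure D2:**
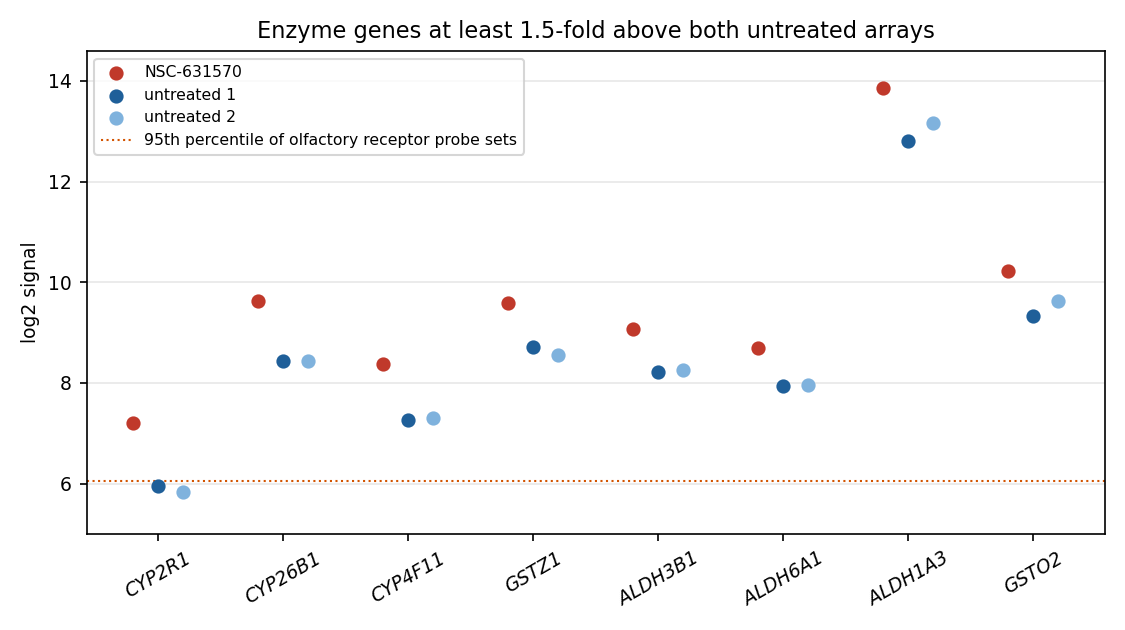
Log2 signal (vertical axis) of the brightest probe set of the 8 enzyme genes at least 1.5-fold above both untreated arrays, ordered by distance from the nearer one, with 1 point per array and NSC-631570 at the left of each gene. The treated point of every gene lies above both untreated points, and the untreated points of CYP2R1 lie below the dotted olfactory receptor level of 6.05.

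The upstream sequences of 5 of these genes are shown because they carry the highest treated signals relative to the untreated arrays (CYP2R1, CYP26B1, CYP4F11, GSTZ1) or a signal that depends on the probe set (ALDH1A3). Each is the 250 bases before a transcription start in RefSeq on GRCh38.p14, written 5′ to 3′ on the strand of the gene. For genes with several listed starts the one listed first was taken. Capitals mark the letters GCGTG or, on the other strand, CACGC, the core bound by the aryl hydrocarbon receptor with its partner, and the antioxidant response element TGACNNNGC or its reverse complement GCNNNGTCA, in which N is any base. Matches of the 2 motifs were counted separately and may overlap.
CYP2R1, chr11:14891672-14891921, minus strand: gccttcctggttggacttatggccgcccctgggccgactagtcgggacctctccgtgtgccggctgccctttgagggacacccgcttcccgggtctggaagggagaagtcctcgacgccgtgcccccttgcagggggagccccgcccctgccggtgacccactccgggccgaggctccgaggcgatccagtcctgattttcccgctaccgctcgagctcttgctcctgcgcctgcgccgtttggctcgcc
CYP26B1, chr2:72147863-72148112, minus strand: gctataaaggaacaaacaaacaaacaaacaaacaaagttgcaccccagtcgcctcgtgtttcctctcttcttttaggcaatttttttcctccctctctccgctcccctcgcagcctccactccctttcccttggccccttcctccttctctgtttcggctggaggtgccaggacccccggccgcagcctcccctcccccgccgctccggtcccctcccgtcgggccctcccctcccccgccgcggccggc
CYP4F11, chr19:15934868-15935117, minus strand: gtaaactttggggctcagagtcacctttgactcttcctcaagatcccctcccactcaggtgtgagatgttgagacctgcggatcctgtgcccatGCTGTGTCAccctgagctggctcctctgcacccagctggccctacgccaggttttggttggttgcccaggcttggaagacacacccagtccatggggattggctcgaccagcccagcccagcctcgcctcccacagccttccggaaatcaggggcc
GSTZ1, chr14:77320786-77321035, plus strand: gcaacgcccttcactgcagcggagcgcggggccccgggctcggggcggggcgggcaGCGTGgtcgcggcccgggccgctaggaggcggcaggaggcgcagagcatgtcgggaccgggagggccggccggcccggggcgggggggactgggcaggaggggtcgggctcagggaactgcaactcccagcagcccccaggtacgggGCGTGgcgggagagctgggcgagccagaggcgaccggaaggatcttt
ALDH1A3, chr15:100879581-100879830, plus strand: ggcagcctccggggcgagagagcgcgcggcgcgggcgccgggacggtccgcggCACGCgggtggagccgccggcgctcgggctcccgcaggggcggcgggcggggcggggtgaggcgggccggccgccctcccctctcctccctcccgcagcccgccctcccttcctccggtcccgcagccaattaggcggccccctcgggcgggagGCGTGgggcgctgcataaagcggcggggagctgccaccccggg

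In the 8 genes, 3 of 13 upstream windows held GCGTG on either strand (23.1%), which were 1 of ALDH1A3, 1 of GSTZ1 and the one listed second for GSTO2. Of 107 windows of 82 matched enzyme genes 20.6% held it, and of all 35116 windows of any gene it was 32.2%. The antioxidant element was found in 1 of the 13 windows (7.69%), that of CYP4F11 shown above, in 10.3% of the windows of the enzyme genes and in 10.9% of all windows. Neither motif was in the windows of CYP2R1 or CYP26B1, which says only that these letters are not in these 250 bases.

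By counts, 37 of 47 tested members lay above the untreated mean, where 66% of all tested genes did, and 10 below it, where 34% did. Of the 47, 31 lay above both untreated arrays, where 51.7% of all tested genes did. Below both lay 6 members, where 22.5% of all tested genes did. The median log2 difference was 0.19 over the tested members and 0.12 over all tested genes. Over all 103 enzyme genes it was 0.10, with 72 higher (69.9%) and 31 lower than the untreated mean, and over all 18132 named genes it was 0.07, with 62.3% higher and 37.7% lower. Centring each array on its median over the tested genes shifts the median of all tested genes to −0.08. The median of the tested members was then −0.0067, with 23 higher and 24 lower (51.1%), where 40% of all tested genes were higher and 60% lower.

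By family, the median difference of the 11 tested glutathione transferases was 0.40, with 9 higher and 2 lower. After that centring it was 0.21, with 7 higher and 4 lower. That of 13 aldehyde dehydrogenases was 0.19, with 12 higher and 1 lower, and −0.0067 after it, with 6 higher and 7 lower. That of 20 P450 genes was 0.13, with 15 higher and 5 lower, and −0.07 after it, with 9 higher and 11 lower. The medians of all tested genes without and with it were 0.12 and −0.08, with 66% and 40% higher. With averaging of probe sets, 9 of 11 glutathione transferases, 7 of 12 aldehyde dehydrogenases and 11 of 15 P450 genes were higher, where 54.9% of all tested genes were. GSTK1, a transferase of mitochondria and peroxisomes, had 10.03 in the treated array against 9.55 and 9.53 in the untreated ones (difference 0.49), and GSTM4, of the mu class, had 6.67 against 6.34 and 6.32 (0.34). MGST2 (0.47), MGST1 (0.42) and GSTO1 (0.40) differed by similar amounts, with untreated arrays 0.45, 0.39 and 0.18 apart. None of these passed, and the lowest limma adjusted p among all tested transferases was 0.131. GSTP1 differed by −0.08 ± 0.22 (limma adjusted p = 0.922).

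**Figure D3:**
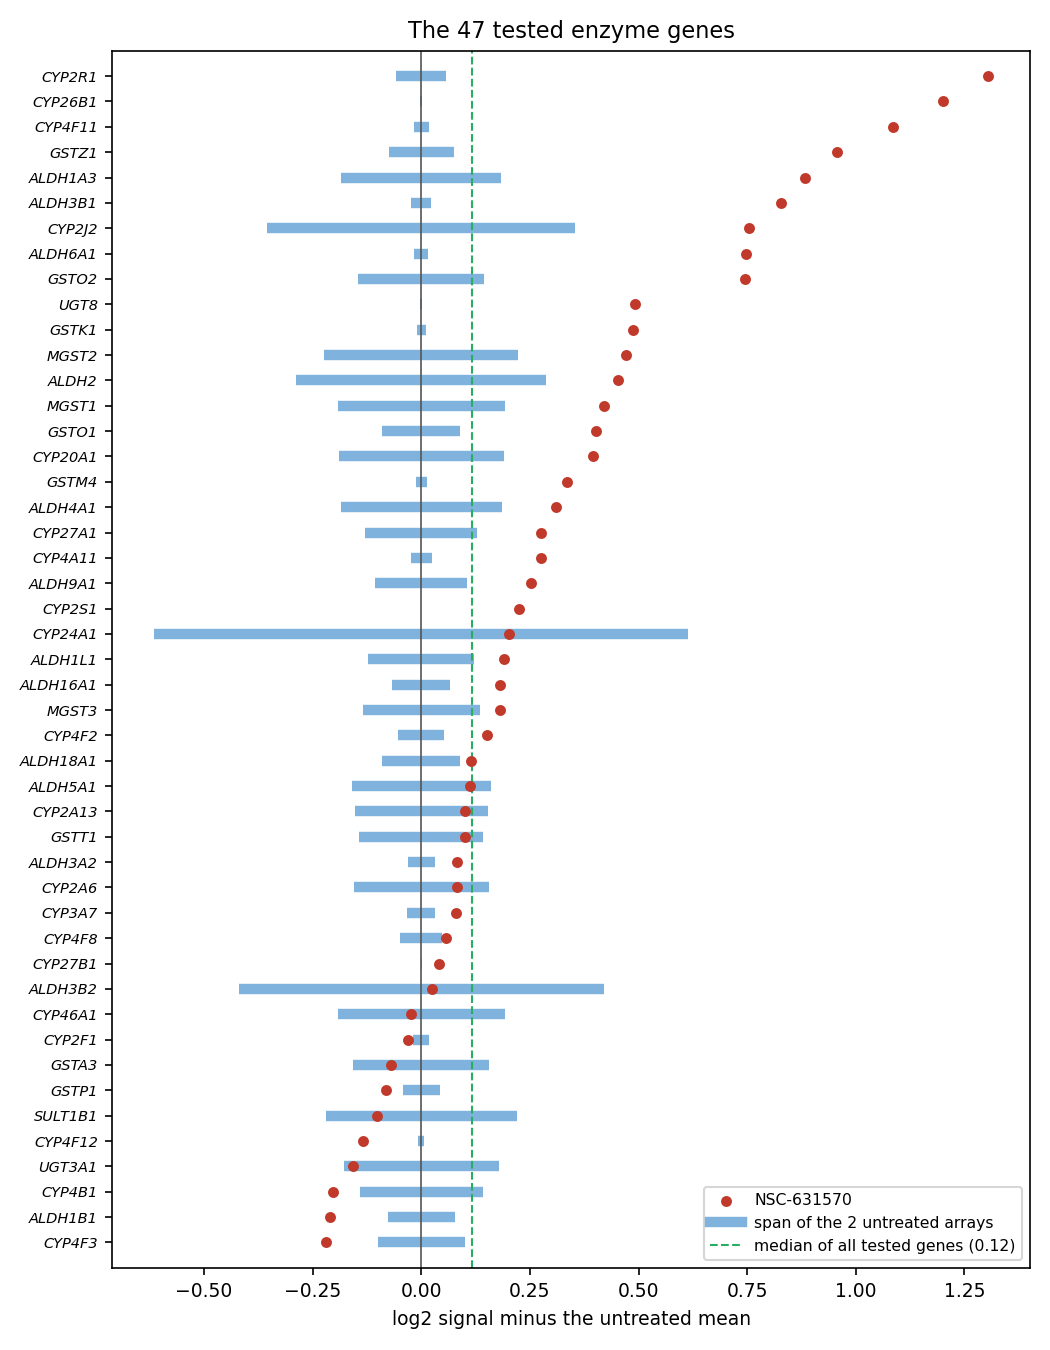
Log2 signal minus the untreated mean (horizontal axis) for the 47 tested enzyme genes, 1 row per gene and sorted by the treated value. Red points are the NSC-631570 array, blue bars span the 2 untreated arrays, and the dashed line is the median of all tested genes, 0.12. CYP2R1, CYP26B1 and CYP4F11 lie beyond 1, and CYP24A1 has the widest untreated span.

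A number of members stood above both untreated arrays by less than 1.5-fold. UGT8, which makes the galactosyl lipid of myelin, had 8.36 in the treated array against 7.87 and 7.86 in the untreated ones, a difference of 0.49 (limma adjusted p = 0.347), but its 2 other probe sets had a median of −0.20. CYP2J2, which makes epoxides of arachidonic acid, had 6.68 against 6.28 and 5.57. The untreated arrays were 0.71 apart for CYP2J2, nearly as much as the treated array differed from their mean (0.75, limma adjusted p = 0.312). CYP20A1, a P450 of unknown substrate, had 8.81 against 8.23 and 8.61.

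Below both untreated arrays were 6 tested members, all by little. ALDH1B1, a mitochondrial aldehyde dehydrogenase, had 8.94 in the treated array against 9.22 and 9.07 in the untreated ones. Its difference of −0.21 ± 0.22 was no larger than its error (limma adjusted p = 0.755), and its other probe set differed by −0.38. CYP4F12 differed by −0.13, CYP4F3 by −0.22, CYP4B1 by −0.20 and CYP2F1 by −0.03. The sixth was GSTP1. CYP4F12, CYP4F3 and CYP4B1 belong to the fatty acid hydroxylases of family 4, as CYP4F11 does. Over the 7 tested genes of family 4 the median was 0.06.

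The vitamin D enzymes were tested for all 3 members. Beside CYP2R1, CYP27B1, which activates vitamin D, had 7.33 in the treated array against 7.29 and 7.29 in the untreated ones. CYP24A1, which inactivates it, had 8.49 against 7.67 and 8.90, so the treated value lay between the untreated ones, which were 1.23 apart. This was the widest gap between untreated arrays among the tested members, whose median gap was 0.20. Against untreated 1 alone CYP24A1 stood at least 1.5-fold higher and against untreated 2 alone it did not.

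Enzymes of retinoid handling were set side by side after their values had been seen. Retinal is made from retinol by enzymes such as RDH10, returned to retinol by DHRS3, and oxidised to retinoic acid by the ALDH1A enzymes, and CYP26 enzymes clear the product. Of the ALDH1A and CYP26 genes, ALDH1A3 and CYP26B1 alone had a mean signal over the 3 arrays above the filter. ALDH1A1 had 4.57 in the treated array against 4.56 and 4.42, and ALDH1A2 had 3.97 against 3.88 and 3.81. CYP26A1 had 5.48 against 6.14 and 5.26, and CYP26C1 had 4.81 against 5.07 and 5.17. RDH10 had 7.96 against 7.46 and 7.11, DHRS3 had 9.49 against 8.44 and 8.95, and DHRS9, a retinol dehydrogenase of epithelia, had 6.78 against 6.11 and 5.77. All 3 lay above both untreated arrays (differences 0.68, 0.79 and 0.83) and none passed (limma adjusted p = 0.26, 0.24 and 0.18). The other probe set of DHRS3 differed by −0.19. CRABP2, a binding protein for retinoic acid, had 6.73 against 6.85 and 6.80, and RDH11 had 12.37 against 12.15 and 12.53.

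**Figure D4:**
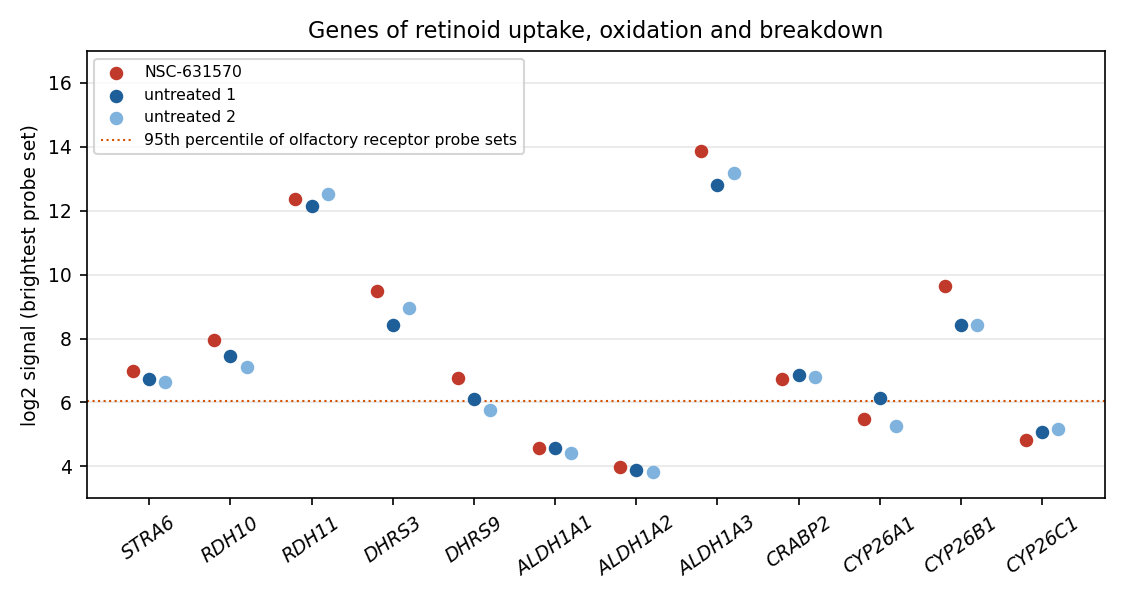
Log2 signal (vertical axis) of the brightest probe set of genes of retinoid uptake, oxidation, binding and breakdown (horizontal axis), with 1 point per array and NSC-631570 at the left of each gene. CYP26B1, DHRS3, RDH10, DHRS9, STRA6 and ALDH1A3 have the treated point above both untreated points. So do ALDH1A1 and ALDH1A2, by little, and these lie below 5 in every array. Other probe sets of ALDH1A3 and DHRS3, not drawn here, differ in sign from the brightest.

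A list of cofactor suppliers, accessory enzymes and regulators of drug metabolism was also read out. Of 55 listed genes, 42 were named on the array and 30 tested. None passed limma's test over all genes, where 0.0419% of all tested genes passed as higher and 0.0251% as lower. Of the 30, 1 lay at least 1.5-fold above both untreated arrays (DHRS9), where 5.84% of all tested genes did. As far below both lay 0, where 1.23% did. Their median difference was 0.13, near the 0.12 of all tested genes, and −0.068 after centring on the tested genes. POR, the reductase that passes electrons to microsomal P450 enzymes, had 10.07 in the treated array against 9.58 and 9.54 (difference 0.51, limma adjusted p = 0.33), and its 3 other probe sets differed by a median of 0.61. SLC35B2, which carries the sulfate donor into the Golgi, had 10.25 against 9.56 and 9.74 (0.60). UGDH, which makes the glucuronic acid donor, had 10.63 against 10.55 and 10.26. On the brightest probe sets, EPHX1, the microsomal epoxide hydrolase, had the lowest difference of the list, with 7.39 against 8.07 and 7.85 (−0.57, limma adjusted p = 0.296). Other probe sets went lower. CYB5R3 stood at 0.12 on the brightest and at −2.06 on its 1 other above the filter. PAPSS1 stood at 0.04 and at a median of −0.81 over its 2 others. EPHX2, the soluble epoxide hydrolase, had 6.26 against 5.17 and 5.09 and lay below the filter, so it was not tested.

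Probe sets of a gene did not always agree in sign. Of 28 members with at least 2 probe sets above the filter, 9 had all of them higher and 4 all lower than the untreated mean, and 15 had both. Some of these mixed signs came from differences near 0, as for CYP2F1 (−0.03 to 0.03). Only 1 member, ALDH1A3, had probe sets opposed by more than 0.5 on each side. The same counts were not made over all genes. Beside ALDH1A3, the difference depended on the probe set for ALDH18A1, where the brightest probe set stood at 0.12 and the other at −1.07, with 8.47 in the treated array against 9.33 and 9.76 in the untreated ones. For ALDH5A1, which breaks down a product of the neurotransmitter GABA, the brightest probe set differed by 0.11 and the other by 0.62. ALDH9A1 had 0.25 on the brightest and a median of −0.26 on the 2 others, and ALDH3A2 had 0.08 and a median of −0.18. For 26 of the 103 genes the brightest probe set was of a type that can match other genes or transcripts, as members of these families are alike in sequence, and 13 genes had only such probe sets.

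**Figure D5:**
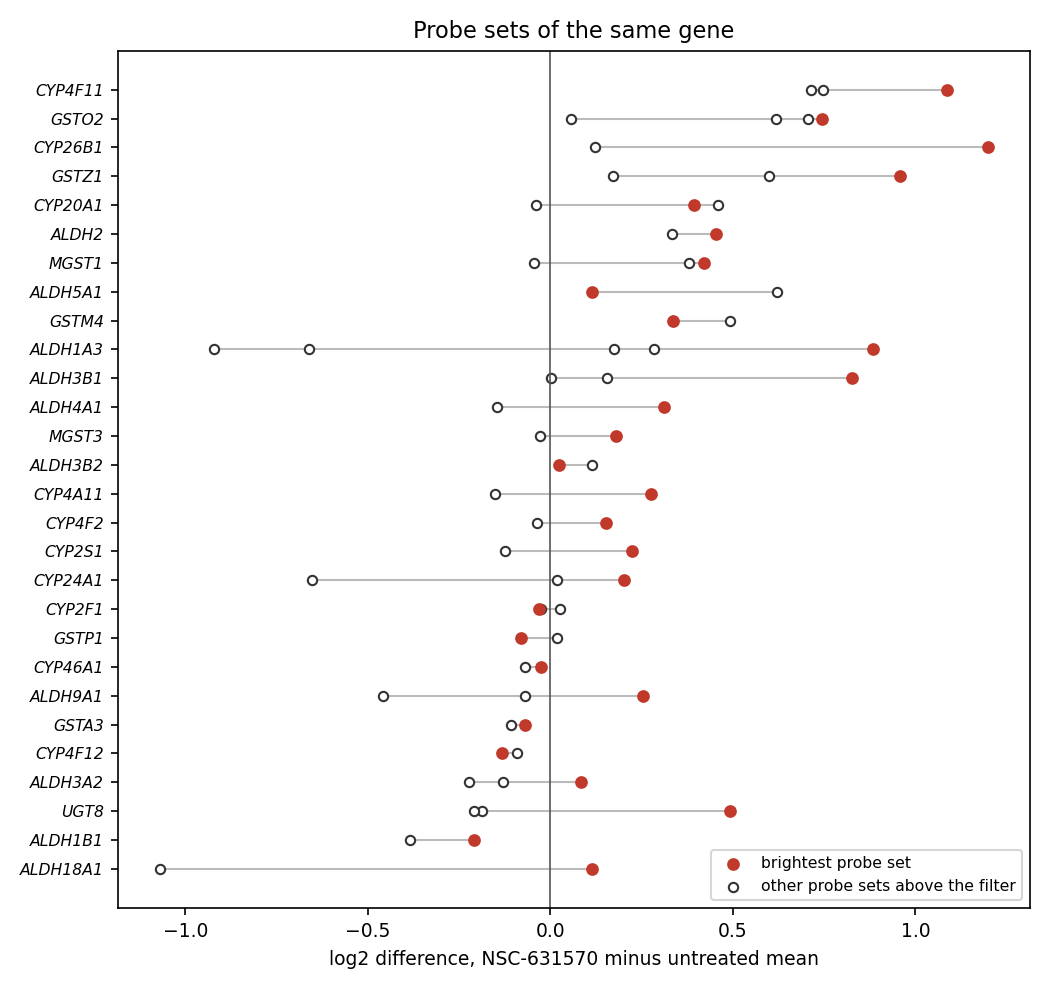
Log2 difference between NSC-631570 and the untreated mean (horizontal axis) of each probe set above the filter, for the 28 enzyme genes with at least 2 such probe sets (rows, sorted by their median). Red points are the brightest probe sets and open points the others. ALDH1A3 spans both sides of 0 beyond 0.5, ALDH18A1 has 1 probe set at −1.07, and all 3 of CYP4F11 lie above 0.7.

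Among the genes left out by rule, CYP1A1 had 10.62 in the treated array against 5.99 and 6.10 in the untreated ones, CYP1B1 had 8.93 against 6.55 and 6.47, and ALDH3A1 had 11.34 against 9.33 and 9.40, and all 3 passed (limma adjusted p = 0.000351, 0.0113 and 0.028). CYP1A2, the other enzyme of that P450 family, had 9.18 against 9.20 and 9.06 (limma adjusted p = 0.957). The probe sets read for CYP1A2 and CYP1B1 are of a type whose probes can match transcripts of more than 1 gene. In simulated arrays of 11932 genes, 12 of 50 genes changed 2-fold were called and 49 of 50 changed 4-fold. The folds seen here are of the first size or below it, except for CYP2R1, CYP26B1 and CYP4F11. These lie between the 2 sizes, for CYP2R1 against untreated signals below the olfactory receptor level. The simulation changed 50 genes at each of 2-, 4-, 8- and 16-fold, while 8 genes passed in the data. With more genes called the adjustment is less strict, so the simulated recovery may be too high for these data.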

How the data were processed

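The authors deposited 1 log2 signal per probe set and array. Affymetrix Expression Console produced them, per the submitters' processing notes. For its algorithm, settings and normalization, details were not given in the sources used here. Values run from 2.92 to 14.95 in untreated 1, from which the log2 scale was read. Medians were 6.55 in the treated array and 6.62 and 6.57 in the untreated ones. Values were used as deposited.

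Of 49395 probe sets, 44994 named 1 gene. A gene was represented by its brightest probe set over the 3 arrays, and a filter at the 40th percentile of probe set means (5.85) set genes of low signal aside. Groups were compared with limma 3.58.1 in R 4.3.3 with Benjamini-Hochberg adjustment at 0.05. The spread has 1 residual degree of freedom, from the untreated arrays, moderated by 6.95 prior degrees of freedom, and the single treated array is taken to vary as they do. If those arrays share a culture, p-values measure technical spread only. On simulated arrays of 11932 genes, all 50 genes changed 8-fold and all 50 changed 16-fold were called, beside 22 unchanged ones. Those 22 were a larger share of all simulated calls than the 0.05 aimed at. The simulation raised and lowered equal numbers of genes, while in the data more genes were higher than lower. The number of arrays limits the precision.

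The enzyme genes, lists and comparisons were chosen with earlier results of these data known. Genes named are those with the 12 largest distances above and up to 12 below the nearer untreated array, the 5 highest signals per family and genes with opposed probe sets. Other named genes were chosen after their values were seen. Sequences are RefSeq's, on GRCh38.p14, and 82 of 103 genes matched. The alternatives were other normalizations, filters, probe set rules, a trend and robust prior, a 2-fold rule and leaving out each untreated array.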

Additional observations from a re-analysis of the deposited data

How the results depend on the processing

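Of the alternatives that allow a test, the enzyme genes stayed without a call under quantile normalization, centring on the tested genes, averaging of probe sets, no filter and a filter at the 60th percentile. With centring on all probe sets 3 passed (CYP26B1, CYP2R1 and CYP4F11), with a trend and robust prior 1 did (CYP2R1), and 1 (CYP26B1) with the brightest probe set not of a cross-matching type, an alternative chosen after seeing the data. Over all tested genes the count of 8 became 4, 136 and 50 under quantile normalization, centring on all probe sets and centring on the tested genes, 3 with averaging of probe sets, 4 without a filter, 21 with the stricter filter, 62 with the other prior and 121 without cross-matching probe sets. The 8 enzyme genes 1.5-fold above both untreated arrays became 5 of 47 with centring on the tested genes (2.63% of all tested genes), 4 of 40 with averaging of probe sets (3.53%) and 3 of 47 at 2-fold (0.88%). Below both, the count was 0 but for 1 (ALDH18A1) without cross-matching probe sets. With the untreated arrays left out in turn, 11 enzyme genes lay above in either case, among them all 8, where 11.3% and 12.1% of all tested genes did. The median difference of the enzyme genes was then between 0.20 and 0.23. It was 0.091 with averaging of probe sets (0.035 over all tested genes, 0.031 for the accessory list), 0.10 without a filter (0.073) and 0.31 with the stricter filter (0.14). With centring on the tested genes it turned to −0.0067 (−0.08 over all tested genes) and that of the accessory list to −0.068. With averaging of probe sets ALDH1A3 turned to −0.048, CYP2F1 to 0.0024 and CYP4F3 to 0.059. CYP2F1 also turned to 0.013 with centring on all probe sets and CYP4F3 to 0.36 without cross-matching probe sets. With the 99th percentile of olfactory receptor probe sets, 27 enzyme genes lay above that level in place of 42. No paired analysis was possible because the treated group has 1 array. Without 1 untreated array no spread is left, so those values have no test. The cause of these changes was not tested.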
